A study of Mus musculus with 4 samples.

Results

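The genes described here encode the machinery of the endoplasmic reticulum (ER) that imports newly made secretory and membrane proteins, trims, glycosylates and folds them, and removes those that fail to fold. They were chosen by symbol from a list of 43 genes. A gene counted as measured where a probe set of the array was annotated to that gene alone, and where it had several, the brightest on average was taken. This gave 42 of the 22180 genes measured in the series. Pdia4, a disulfide isomerase, has a probe set shared with another gene and was left out. Of the 42 genes, 41 passed a filter on brightness, a mean log2 value of at least 5.03 (the all-gene median), as did 11090 genes in all. Sec61b fell below it and is described by its values.

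Proteins bound for secretion are recognised by the signal recognition particle as they leave the ribosome and enter the ER through the Sec61 channel, where signal peptidase removes the signal sequence and the oligosaccharyltransferase attaches sugar chains. Chaperones and disulfide isomerases then fold them, and misfolded proteins are drawn back to the cytosol by ER-associated degradation. When unfolded proteins accumulate, the unfolded protein response, with the transcription factor Xbp1 among its effectors, raises many of these genes. In the gastric corpus, pepsinogen-secreting chief cells carry an extensive ER.

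RNA came from the corpus, the acid-secreting part of the stomach, of mice aged 8 to 10 weeks after 14 days of daily intraperitoneal injections, with 1 array in each of 4 groups. The knockout (KO) mice carried Atp4b-cre with the floxed alleles Prkaa1fl/fl and Prkaa2fl/fl, which encode the catalytic subunits of AMP-activated protein kinase (AMPK), on a mixed B6 and FVB background. One KO group received metformin at 300 mg/kg and the other saline vehicle, and wild-type (WT) C57BL/6 mice formed a metformin and a vehicle group given the same doses. Atp4b drives Cre in parietal cells, so other cells of the corpus keep both genes, and the effects of genotype and of strain background cannot be told apart. The sources used here do not give the number of animals per array. With 1 array per group no difference has a replicate check and no p-value is given. All differences are on the log2 scale, and a call of higher or lower needed a change of at least 1 (2-fold). In whole tissue, fewer cells of a type and less RNA per cell cannot be told apart.

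Prkaa1 was lower in KO than in WT under metformin (-0.24) and under vehicle (-1.28), and so was Prkaa2 (-0.50 and -1.71). The lower quartile of all genes was -0.16 under metformin and -0.58 under vehicle, so Prkaa1 under metformin was little beyond it. Over all 11090 genes the median log2 difference was 0.11 for metformin in KO, -0.14 for metformin in WT, 0.02 for KO against WT under metformin and -0.22 for KO against WT under vehicle. Cyclic loess between the arrays moved these medians to 0.03, -0.06, 0.01 and -0.07, and centring each array on its median moved them to 0.19, -0.21, 0.03 and -0.37. The medians of the ER genes are therefore given beside those of all genes. In the 2-fold calls over all genes, 77.9% were lower in KO against WT under vehicle as deposited, 60.4% after cyclic loess and 89.5% with centred arrays.

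**Figure D1:**
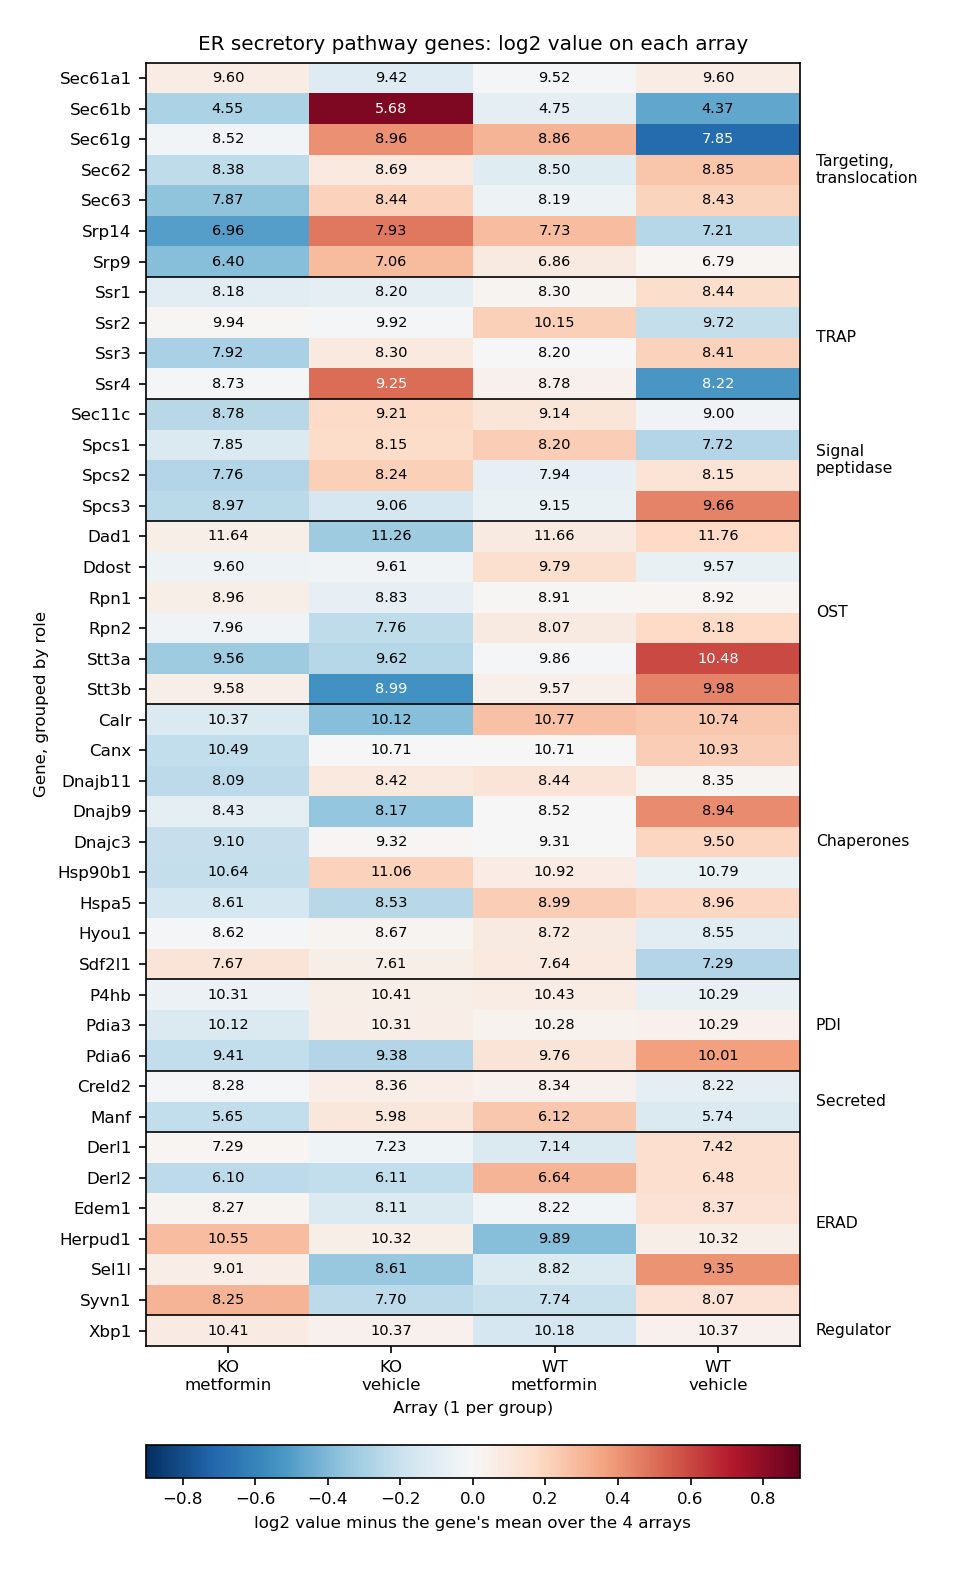
The log2 value of each of the 42 genes is printed on the 4 arrays (columns), and the colour gives that value minus the gene's own mean over the arrays, with genes grouped by role (TRAP, translocon-associated protein; OST, oligosaccharyltransferase; PDI, disulfide isomerases; ERAD, ER-associated degradation). Sec61g (8.96), Ssr4 (9.25) and Srp14 (7.93) have their highest value on the KO vehicle array, and Stt3a (10.48), Stt3b (9.98) and Sel1l (9.35) on the WT vehicle array.

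The ER genes differed little across the arrays. The distance between a gene's highest and lowest array had a median of 0.47 over the 41 genes, against 0.54 over all 11090 genes. It reached 2-fold for 2 of the 41 genes (4.88%), Sec61g and Ssr4, against 12.4% of all genes. The narrowest were Rpn1 (0.12), a subunit of the oligosaccharyltransferase, and the disulfide isomerase P4hb (0.13). Of the 41 genes, 17 (41.5%) were lowest on the KO metformin array, where 17.7% of all genes were lowest. The KO vehicle array held the lowest value of 12 of the 41 (29.3%), against 44.3% of all genes.

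Between the genotypes under metformin, most import, processing and folding genes were slightly lower in KO, while 5 of the 6 degradation genes among them were higher, against 3 of 10 other degradation genes (median -0.05). Of the 41 genes, 31 were lower in KO than in WT, and the median difference over the 41 was -0.19, against 0.02 over all genes, of which 46.9% were lower. None of the 41 reached 2-fold, against 0.532% of all genes that were higher and 0.388% that were lower. At 1.5-fold 1 gene was higher (Herpud1) and 1 lower (Srp14), against 3.11% and 2.67% of all genes. The median lay between -0.20 and -0.16 under the other filters, scalings and summaries, and 31 or 32 of 41 genes were lower after cyclic loess, centring, averaging of probe sets and removal of a trend on gene span. The median of the 6 was 0.17, and of the other 35 genes 5 were higher (median -0.19). Those 5 others were Xbp1 (0.23), Sec61a1 (0.08), Rpn1 (0.04), Sdf2l1 (0.03) and Stt3b (0.01). The degradation median was between 0.14 and 0.18 under the other scalings and summaries, although averaging its probe sets put Edem1 below 0 and left 4 of 6 higher. In the same arrays the summed level of 6 chief cell markers was 14.95 on the KO metformin array and 14.97 on the WT metformin array (log2 of summed linear values). This sum follows the brightest markers, above all Pgc (13.99 on both arrays), which has the highest value of the series (14.02, KO vehicle). It can therefore hide differences of dimmer markers. Of the 5 past the filter, 4 were higher in KO (Pga5 highest at 0.23) and Chia1 was lower (-0.12). Lipf lay below the filter value on all arrays. The summed level of 6 plasma cell markers, another cell type rich in ER, was 10.73 and 9.42. The sum follows Ighm (10.39 on the KO metformin array and 8.33 on the WT metformin array) and Jchain (6.08 and 3.19), whereas Derl3 (-0.23) and Fkbp11 (-0.41) were lower in KO, Mzb1 and Tnfrsf17 lay below the filter value on all arrays, and the median difference of the 6 was -0.09. Markers of some other cell types also differed between these arrays. The summed level was 9.70 on the KO metformin array and 6.26 on the WT metformin array for 4 squamous markers (Krtdap 9.13 and 4.51). It was 10.09 and 8.77 for 5 mast cell markers, and 13.22 and 13.70 for 5 smooth muscle markers. Of the mast cell markers, Kit went the other way (-0.31). The summed level differed less for parietal (14.32 and 14.29), pit (15.37 and 15.42), fibroblast (11.20 and 11.35) and endothelial markers (9.56 and 9.81). For the 5 mucous neck cell markers the summed level was 13.22 and 13.09, a sum that follows Tff2, the brightest of them (12.34 and 12.62). Their median difference was 0.80, with 4 higher in KO (Gkn3 highest at 1.27, Tff2 lowest at -0.28). The part of these cell types in the differences of the ER genes was not tested.

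**Figure D2:**
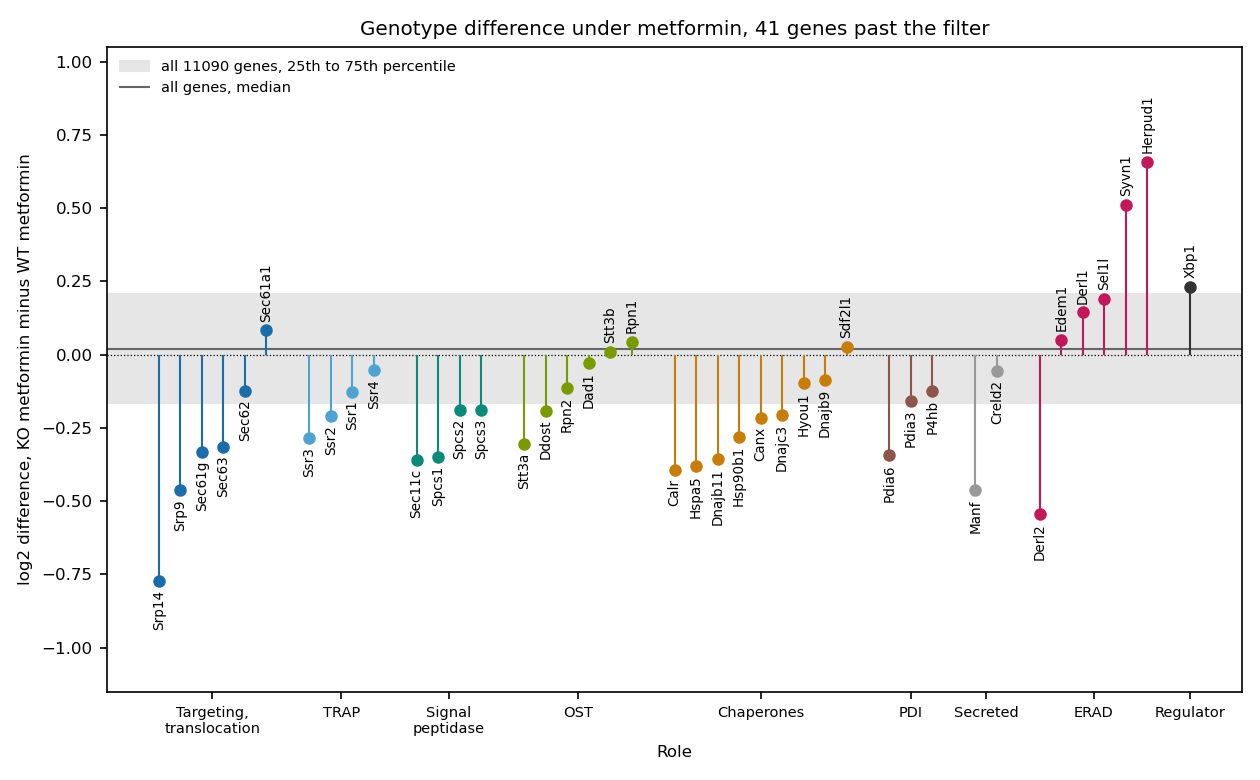
Each stem is the log2 difference, KO metformin minus WT metformin, of 1 of the 41 genes past the filter, arranged by role and then by value, with the quartiles of all 11090 genes as a grey band and their median (0.02) as a grey line. Herpud1 (0.66) and Syvn1 (0.51) stand highest and Srp14 (-0.77), Derl2 (-0.54) and Srp9 (-0.46) lowest.

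Among the degradation genes, Herpud1, a membrane protein induced by the unfolded protein response that helps assemble the retrotranslocation complex, had log2 values of 10.55 on the KO metformin array, 10.32 on the KO vehicle array, 9.89 on the WT metformin array and 10.32 on the WT vehicle array. The vehicle arrays were equal, and under metformin KO was higher by 0.66 (1.58-fold), which lay between 0.66 and 0.67 under the other scalings. After cyclic loess the vehicle arrays differed by 0.21 and with centred arrays by -0.15. Syvn1, the membrane ubiquitin ligase of the pathway, had 8.25 on the KO metformin array, 7.70 on the KO vehicle array, 7.74 on the WT metformin array and 8.07 on the WT vehicle array. Its partner Sel1l, which stabilises the ligase complex, had 9.01, 8.61, 8.82 and 9.35 on the arrays in the same order. Both were higher with metformin in KO (0.55 and 0.40) and lower with metformin in WT (-0.33 and -0.53). Derl2, a component of the retrotranslocation channel, was lower in KO under metformin (-0.54). It had 6.10 on the KO metformin array, 6.11 on the KO vehicle array, 6.64 on the WT metformin array and 6.48 on the WT vehicle array. A dimmer probe set of Derl2 gave the same -0.54 under metformin but 0.11 under vehicle, where the brighter one gave -0.38. Edem1, which directs misfolded glycoproteins to disposal, and Derl1, a relative of Derl2, stayed within 0.28 over all arrays.

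The targeting and translocation genes held the largest differences of the 41. Sec61g, the gamma subunit of the Sec61 channel, had 8.52 on the KO metformin array, 8.96 on the KO vehicle array, 8.86 on the WT metformin array and 7.85 on the WT vehicle array. The WT vehicle array stood lowest, and Sec61g exceeded it by 1.10 (2.15-fold) in KO under vehicle and by 1.0 (2.0-fold) in WT with metformin. It was the 1 member past 2-fold with metformin in WT, where 0.775% of all genes were higher and 0.929% lower, and with centred arrays it missed 2-fold in both comparisons (0.95 and 0.93). At 1.5-fold, 1 of the 41 was higher with metformin in WT (Sec61g) and 1 lower (Stt3a), against 3.57% and 9.06% of all genes. These comparisons share the WT vehicle array. Sec61b, the beta subunit, had 5.68 on the KO vehicle array and lay below the filter value on the KO metformin (4.55), WT metformin (4.75) and WT vehicle (4.37) arrays, so no exact fold is read from it. Its other probe set was dim throughout and lowest on the KO vehicle array (4.25). Sec61a1, the channel-forming alpha subunit, varied by 0.18 over the arrays.

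Srp14 and Srp9 form the part of the signal recognition particle that pauses translation. Srp14 had 6.96 on the KO metformin array, 7.93 on the KO vehicle array, 7.73 on the WT metformin array and 7.21 on the WT vehicle array. Srp9 had 6.40, 7.06, 6.86 and 6.79 on the arrays in the same order. Both were highest on the KO vehicle array and lowest on the KO metformin array, and metformin in KO gave -0.97 for Srp14 and -0.66 for Srp9. No member reached 2-fold with metformin in KO, against 2.44% of all genes that were higher and 0.613% that were lower, though Srp14 did after cyclic loess (-1.11). At 1.5-fold 1 was higher (Stt3b) and 2 lower (Srp14 and Srp9), against 12.4% and 3.72%. Sec62 and Sec63, membrane proteins that assist the channel, were lower with metformin in KO (-0.32 and -0.57) and in WT (-0.35 and -0.24). Sec63 had 7.87 on the KO metformin array, 8.44 on the KO vehicle array, 8.19 on the WT metformin array and 8.43 on the WT vehicle array, so that both metformin arrays were below both vehicle arrays. Over the 6 targeting and translocation genes past the filter, 5 were lower with metformin in KO, with a median of -0.50 (between -0.66 and -0.42 under the other scalings and summaries), against 0.11 over all genes.

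The translocon-associated protein complex (Ssr1 to Ssr4), which aids the entry of some substrates, differed by subunit. Ssr4 had 8.73 on the KO metformin array, 9.25 on the KO vehicle array, 8.78 on the WT metformin array and 8.22 on the WT vehicle array. With Sec61g it was past 2-fold in KO against WT under vehicle (1.03, 2.04-fold), so that 2 of the 41 genes were higher there and none lower, against 2.31% and 8.12% of all genes. At 1.5-fold 3 were higher and 7 lower, against 7.44% and 24.4%. With centred arrays neither was past 2-fold (0.88 for Ssr4), and under metformin the genotypes differed by -0.05 for Ssr4. The other 3 subunits varied by at most 0.49 over the arrays, although a dim second probe set of Ssr1 gave -1.25 in KO against WT under vehicle where the brighter one gave -0.24.

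By their brightest probe sets, all 4 signal peptidase genes, with the catalytic subunit Sec11c among them, were lower with metformin in KO. Over all genes 38.2% were lower. The median of the 4 was -0.36 (between -0.51 and -0.22 under the other scalings and summaries), against 0.11 over all genes. Under vehicle, KO was higher than WT for Spcs1 (0.43), a small accessory subunit, and lower for Spcs3 (-0.60), another accessory subunit. Spcs3 had 8.97 on the KO metformin array, 9.06 on the KO vehicle array, 9.15 on the WT metformin array and 9.66 on the WT vehicle array, which stood highest. For Spcs2 a second probe set gave 0.18 with metformin in KO where the brighter one gave -0.48, so its direction is not settled.

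The catalytic subunits of the oligosaccharyltransferase had the lowest differences of the 41 genes in KO against WT under vehicle. Stt3b, which can also glycosylate sites after translation, had 9.58 on the KO metformin array, 8.99 on the KO vehicle array, 9.57 on the WT metformin array and 9.98 on the WT vehicle array. Its difference under vehicle was -0.99, just inside 2-fold, and -1.14 with centred arrays. Stt3a, which acts during import, had 9.56, 9.62, 9.86 and 10.48 on the arrays in the same order. It stood highest on the WT vehicle array, with -0.85 in KO against WT under vehicle. Dad1 (-0.50), Rpn2 (-0.41) and Rpn1 (-0.09) were lower there too and Ddost was at 0.04, all 4 being noncatalytic subunits. The median of the 6 genes was -0.45, against -0.22 over all genes, and it stayed negative under the other scalings and summaries (-0.61 to -0.17).

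No chaperone or disulfide isomerase reached 2-fold between any pair of arrays, and the widest distances over the arrays were those of Dnajb9 (0.78), Calr (0.65) and Pdia6 (0.63), all 3 lower past 1.5-fold in KO than in WT under vehicle. Hspa5 (BiP), the main ER chaperone and a standard readout of the unfolded protein response, had 8.61 on the KO metformin array, 8.53 on the KO vehicle array, 8.99 on the WT metformin array and 8.96 on the WT vehicle array. Both KO arrays lay below both WT arrays, with differences of -0.38 under metformin and -0.43 under vehicle (-0.18 after cyclic loess). Metformin moved it by 0.09 in KO and by 0.03 in WT. Calr, a lectin chaperone of glycoproteins, had 10.37, 10.12, 10.77 and 10.74 on the arrays in the same order, and the isomerase Pdia6 had 9.41, 9.38, 9.76 and 10.01. Both showed the KO arrays below the WT arrays, and all 3 genes kept that sign in both treatments under the other scalings. Canx, the membrane-bound relative of Calr, was lower in KO by the same -0.22 under metformin and under vehicle, and the isomerase Pdia3, which works with both, differed by -0.16 and 0.02.

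Hsp90b1 (GRP94), which folds secreted proteins and surface receptors, had 10.64 on the KO metformin array, 11.06 on the KO vehicle array, 10.92 on the WT metformin array and 10.79 on the WT vehicle array. It was highest on the KO vehicle array, the reverse of Hspa5. Dnajb9, a cochaperone of Hspa5, had 8.43, 8.17, 8.52 and 8.94 on the arrays in the same order and stood lowest on the KO vehicle array (-0.78 against WT vehicle). The cochaperones Dnajc3 (-0.21 and -0.18) and Dnajb11 (-0.36 and 0.06) are given as KO against WT under metformin and then under vehicle. Hyou1, a nucleotide exchange factor for Hspa5, varied by 0.17 over the arrays, and Sdf2l1, a cofactor of Dnajb11, by 0.38. Over the 9 chaperones and cochaperones the median of KO against WT was -0.22 under metformin, with 8 lower, and lay between -0.24 and -0.21 under the other scalings and summaries. Under vehicle it was -0.18 and became 0.06 after cyclic loess, 0.15 with the span trend removed and -0.33 with centred arrays.

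The secreted protein Manf, which is induced by ER stress, had 5.65 on the KO metformin array, 5.98 on the KO vehicle array, 6.12 on the WT metformin array and 5.74 on the WT vehicle array. With metformin it was lower in KO (-0.32) and higher in WT (0.37). Creld2, also secreted under ER stress, varied by 0.15 over the arrays. Xbp1 had 10.41, 10.37, 10.18 and 10.37 on the arrays in the same order, with equal vehicle arrays as for Herpud1 (0.21 after cyclic loess and -0.15 with centred arrays). The value covers the transcript and does not tell its spliced form from the unspliced one.

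Motifs of the unfolded protein response were searched in promoter windows of 300 bases (250 before the annotated start and 50 after it) from RefSeq, build GRCm38.p6, which hold 35 of the 42 genes. The ER stress response element (ERSE, the letters CCAAT and CCACG with any 9 bases between them) was present on either strand in 8 of the 35 genes (22.9%), against 0.119% of all 32851 windows. Members are counted by gene here and the background by window. The list was made of genes of this pathway, many of them known to be raised by the unfolded protein response. A higher share was therefore likely in advance and is no independent result. The related ERSE-II (ATTGG and CCACG with any 1 base between them) was present in 2 (5.71%), against 0.0365% of all windows, and the UPRE (TGACGTGG) in none, against 0.676%. Only this form of the UPRE was searched. The Hspa5 window below holds TGACGTGA, which differs from it in the last base, so variants of the UPRE may be present. The windows below give the 220 bases before the start of 6 genes, chosen because Hspa5, Calr and Pdia6 were lower on both KO arrays, Hsp90b1 carries 2 elements and was highest on the KO vehicle array, and Herpud1 and Syvn1 were higher in KO under metformin. Capitals mark the fixed letters of ERSE, or of ERSE-II in Herpud1, read 5′ to 3′ on the strand of the gene.
Hspa5 (chr2:34771870-34772089, plus strand): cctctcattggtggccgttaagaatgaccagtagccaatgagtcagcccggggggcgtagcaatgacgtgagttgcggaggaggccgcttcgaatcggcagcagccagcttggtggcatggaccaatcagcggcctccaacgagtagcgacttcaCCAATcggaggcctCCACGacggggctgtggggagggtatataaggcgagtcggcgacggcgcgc
Calr (chr8:84846932-84847151, minus strand): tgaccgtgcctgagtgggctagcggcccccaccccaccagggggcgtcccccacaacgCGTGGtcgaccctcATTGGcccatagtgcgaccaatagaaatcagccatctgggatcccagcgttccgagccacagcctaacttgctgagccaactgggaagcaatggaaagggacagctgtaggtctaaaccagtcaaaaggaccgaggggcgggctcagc
Pdia6 (chr12:17266369-17266588, plus strand): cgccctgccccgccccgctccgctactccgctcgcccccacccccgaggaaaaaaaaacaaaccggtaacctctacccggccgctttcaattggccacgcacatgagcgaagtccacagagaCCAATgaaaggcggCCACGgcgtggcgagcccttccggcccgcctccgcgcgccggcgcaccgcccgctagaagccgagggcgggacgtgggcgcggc
Hsp90b1 (chr10:86705445-86705664, minus strand): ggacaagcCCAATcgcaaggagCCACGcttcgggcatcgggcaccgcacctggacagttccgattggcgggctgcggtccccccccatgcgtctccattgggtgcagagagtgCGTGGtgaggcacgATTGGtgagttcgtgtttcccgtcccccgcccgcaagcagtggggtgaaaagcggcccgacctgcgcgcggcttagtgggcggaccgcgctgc
Herpud1 (chr8:94386209-94386428, plus strand): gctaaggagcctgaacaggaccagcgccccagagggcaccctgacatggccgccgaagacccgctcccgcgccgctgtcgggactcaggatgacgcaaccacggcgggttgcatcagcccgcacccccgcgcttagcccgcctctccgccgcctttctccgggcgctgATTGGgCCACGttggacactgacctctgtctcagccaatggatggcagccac
Syvn1 (chr19:6046356-6046575, plus strand): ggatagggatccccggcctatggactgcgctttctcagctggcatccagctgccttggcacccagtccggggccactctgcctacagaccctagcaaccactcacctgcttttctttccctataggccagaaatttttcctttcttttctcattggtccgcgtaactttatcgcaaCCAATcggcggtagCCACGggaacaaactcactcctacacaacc
The element began 65 bases before the start in Hspa5, 98 in Pdia6, 52 in Herpud1 and 44 in Syvn1. In Calr it lay on the opposite strand, 162 bases before the start, and in Hsp90b1 on the same strand at 212 and on the opposite strand at 107. The 10 genes with either element (the others being Canx, Creld2, Dnajc3 and Dnajb11) differed by -0.39 to 0.66 in KO against WT under metformin, with a median of -0.25 and 2 above 0. The 24 genes past the filter with a window and no element had a median of -0.12, with 6 above 0. In KO against WT under vehicle the medians with and without an element were -0.20 and -0.04. They were close for metformin in KO (-0.02 and -0.04) and in WT (-0.08 and -0.10), with 5 of 10 and 9 of 24 above 0 in each. A match describes the letters of the window and is not evidence of binding.

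**Figure D3:**
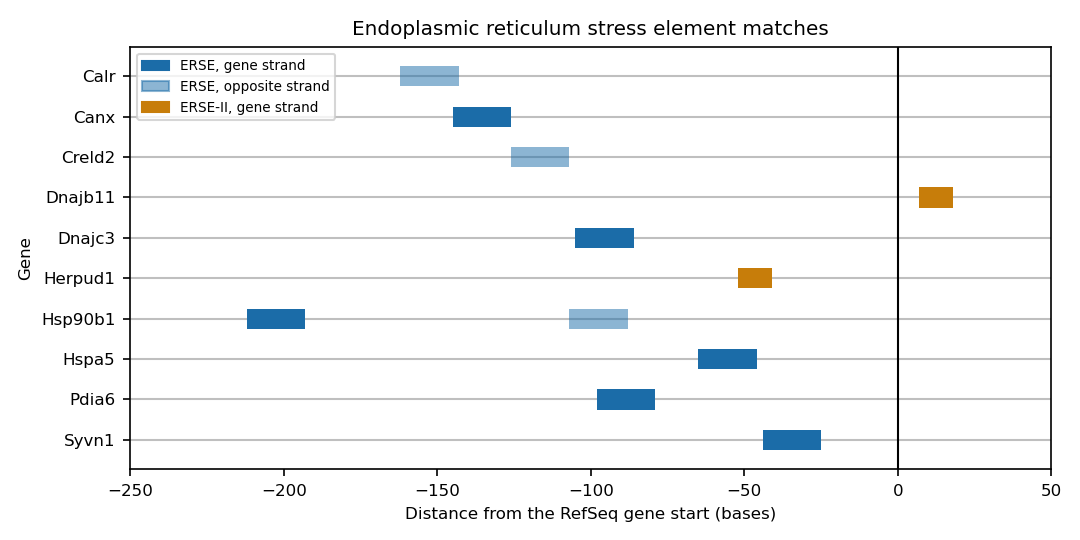
Each line is the promoter window of 1 gene with an element, and the marks show the distance of ERSE and ERSE-II from the annotated start in bases. Hsp90b1 holds 2 elements (212 and 107 bases before the start), and the element of Dnajb11 lies after the start.

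Metformin went with opposite differences in the genotypes for many of the ER genes, as for genes in general. Of the 41 genes, 27 (65.9%) had opposite signs in KO and WT, against 65.9% of all genes, and the KO and WT differences had r = -0.47 across the 41 genes and -0.40 across all 11090. These responses share no array, and genes are not independent replicates. In 14 of the 41 (34.1%) metformin gave a lower value in KO and a higher one in WT, against 19.4% of all genes, and in 13 (31.7%) a higher value in KO and a lower one in WT, against 46.6%. The median of the KO minus WT response was -0.03 over the 41 genes and 0.26 over all genes, and after cyclic loess that of the 41 was -0.28. Past 2-fold, 3 genes were lower (Srp14 at -1.50, Sec61g at -1.44 and Ssr4 at -1.08) and none higher, against 3.61% and 11.2% of all genes. At 1.5-fold 6 were lower and 5 higher, against 9.63% and 28.5%. Stt3b was just inside 2-fold at 0.999, followed by Sel1l (0.94) and Syvn1 (0.88).

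**Figure D4:**
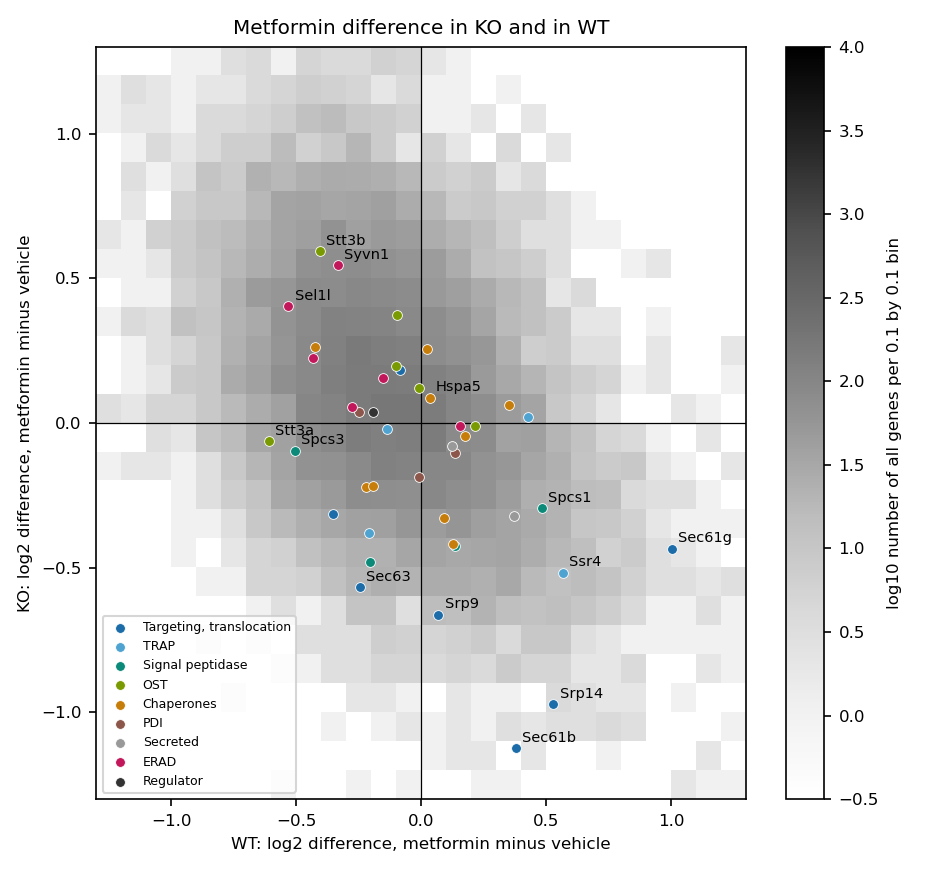
Each point is 1 of the 42 genes, with the log2 difference metformin minus vehicle in KO on one axis and in WT on the other, over the density of all 11090 genes in grey, with axes cut at 1.3 either side of 0. Srp14 (-0.97 in KO, 0.53 in WT), Sec61g (-0.43, 1.0) and Ssr4 (-0.52, 0.57) lie on one side, and Stt3b (0.59, -0.41), Sel1l (0.40, -0.53) and Syvn1 (0.55, -0.33) on the other.

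The ER genes with the largest positive vehicle differences are short, and those with the largest negative ones include both long and short genes. Gene span, the distance from the first to the last base of a gene in RefSeq, was 6.85 kb for Sec61g, 3.81 kb for Ssr4, 3.85 kb for Srp14 and 1.84 kb for Spcs1. It was 68.0 kb for Stt3b, 38.3 kb for Stt3a and 43.1 kb for Sel1l, while Dnajb9 (4.17 kb) and Syvn1 (7.14 kb) are short and were also low there. Across the 41 genes the vehicle difference between KO and WT correlated with log10 span at r = -0.46, against -0.26 over 10548 protein-coding genes, and the metformin difference in WT at r = -0.57, against -0.30. These comparisons share the WT vehicle array. Of the 20 ER genes shorter than their median span of 12.96 kb, 12 were higher in KO than in WT under vehicle (median 0.08), against 7 of the 21 longer ones (median -0.18). In KO against WT under metformin the correlation was 0.13, against 0.06 over protein-coding genes. Small nucleolar RNA genes, which are short, had a median of 1.13 in KO against WT under vehicle and 1.13 with metformin in WT (59 genes). With the trend on gene span removed, the vehicle difference was 1.17 for Sec61g, 0.99 for Ssr4, -0.63 for Stt3b and -0.52 for Stt3a. The part of gene length or RNA quality in these differences was not tested further.

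**Figure D5:**
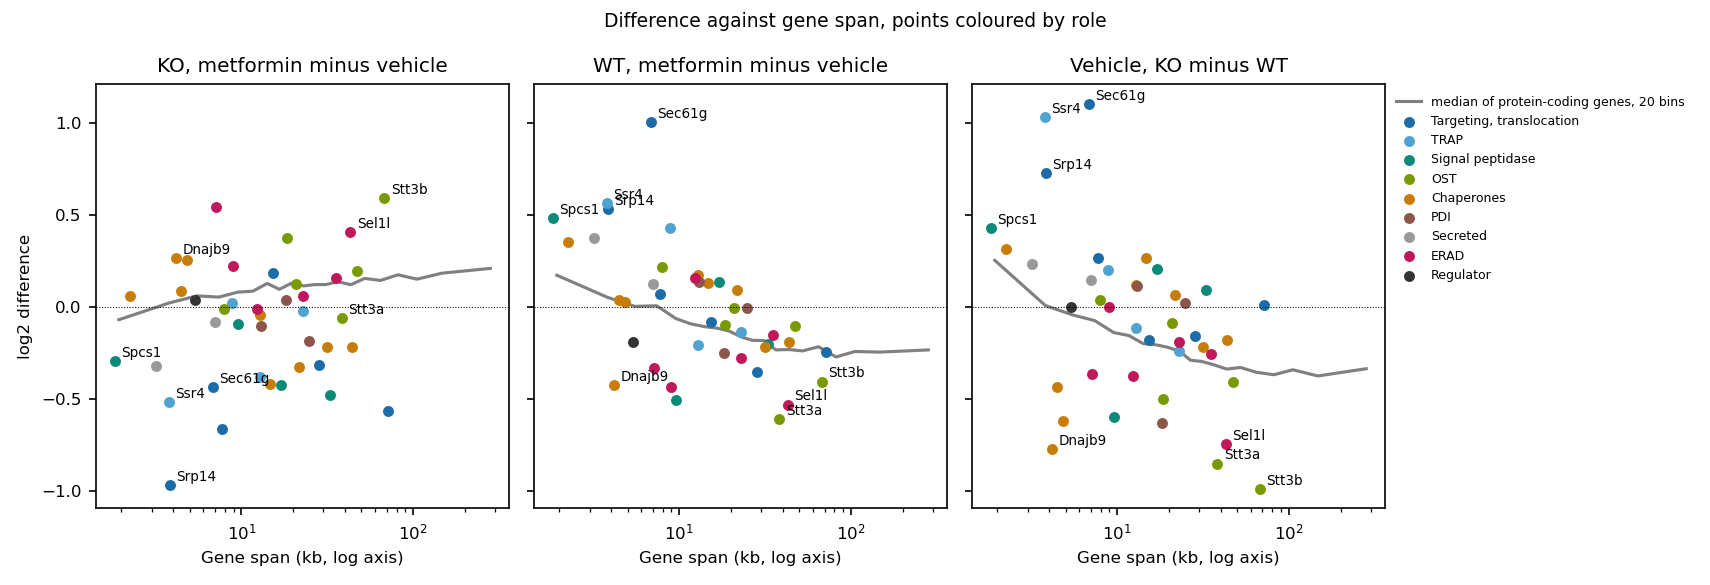
Each point is 1 of the 41 genes, with gene span in kb on a log axis and the log2 difference on the other axis, and each panel shows 1 comparison with the medians of protein-coding genes in bins of span as a line. Short genes such as Sec61g (6.85 kb) lie high and long ones such as Stt3b (68.0 kb) low in KO against WT under vehicle and with metformin in WT.

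Other genes of the secretory pathway, 86 past the filter of 90 listed, gave different medians from the 41. Their median was 0.13 for metformin in KO, -0.22 for metformin in WT, -0.02 for KO against WT under metformin and -0.33 for KO against WT under vehicle. For the 41 genes the medians were -0.04, -0.08, -0.19 and -0.09 in the same order. Under vehicle 7 of the 86 were lower in KO past 2-fold and none higher, against 8.12% and 2.31% of all genes, so the share of lower genes was near the background. They included Srp72 (-1.39), another protein of the signal recognition particle, Sec61a2 (-1.11), a second channel alpha subunit, and Tram2 (-1.10), a translocation-associated protein. The others were Tmx1 (-1.12) and Ganab (-1.09) of the list of folding enzymes, and Creb3l2 (-1.70) and Creb3l4 (-1.10), membrane-bound stress transcription factors. Srp72 was thus lower in KO where its fellow subunit Srp14 was higher (0.73). Among 10 other degradation genes, 3 were higher in KO under metformin, with a median of -0.05. The highest of those 10 was Ube2j1 (0.54), a ubiquitin-conjugating enzyme of the same pathway, and the lowest Selenos (-0.30), a membrane selenoprotein of the retrotranslocation complex.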

How the data were processed

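Labelled cDNA from total RNA of the gastric corpus was hybridised to 4 microarrays, 1 per group. The deposited log2 values come from RMA (robust multi-array averaging), and the submitters' processing notes name Partek as the software. The sources used here give neither versions nor settings. Gene names came from the annotation of the platform (23521 with 1 gene, 1814 with several, 16010 unnamed here), with symbols updated through RefSeq, GRCm38.p6, where 23328 of the 23521 were found. RefSeq also gave gene spans and promoter windows. The filter on brightness kept genes whose mean reached the all-gene median (5.03).

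The members, roles and other lists were chosen with earlier results of these data known. Values on all 4 arrays are given for genes past 2-fold and for the 3 highest and 3 lowest of each comparison. Other members named with all values were chosen after their values were seen. Of the other pathway genes, all those past 2-fold in KO against WT under vehicle are named. Others past 2-fold, or highest or lowest in their list, are named only in part. No test was run, since each group has 1 array, and the number of arrays limits the precision. The results were also computed unfiltered, with the filter raised to the 75th percentile, after cyclic loess (limma 3.58.1, R 4.3.3), centred arrays, the mean of probe sets, a 1.5-fold call and, chosen after seeing the data, a lowess trend on log10 span removed (span 0.3, protein-coding genes). The calculations used Python 3.11.15, numpy 2.4.6, pandas 2.3.3 and statsmodels 0.14.6 and were tested on simulated data.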

Additional observations from a re-analysis of the deposited data

Results flagged for a closer look

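For 3 genes past the filter metformin went with a lower value in KO and a higher value in WT, and the KO minus WT response was past 2-fold. With 1 array per group the difference was not tested. It was -1.50 for Srp14, -1.44 for Sec61g and -1.08 for Ssr4 on the log2 scale. The brighter probe set of Sec61b gave -1.50, which is not read as an exact fold because 3 of its 4 arrays lay below the filter value. The other probe set of Sec61b had the opposite sign (0.42, with 0.49 for metformin in KO), and the mean of both gave -0.54, so the direction of Sec61b is not settled. For Srp14 and Sec61g it stayed past 2-fold after cyclic loess (-1.78 and -1.71), with centred arrays (-1.34 and -1.28) and with the trend on gene span removed (-1.48 and -1.52). For Ssr4 it was -1.36, -0.92 and -1.05 under the same settings.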

How the results depend on the processing

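A median counted as changed when it moved by 0.1 or more on the log2 scale, and a count when it moved by over 1.5 times. No called gene changed sign under any alternative run. With the 1.5-fold call, 1 gene was higher and 2 lower with metformin in KO, 1 lower with metformin in WT, 1 higher and 1 lower in KO against WT under metformin, 7 lower in KO against WT under vehicle, and 5 higher and 6 lower in the KO minus WT response. With centred arrays, the median of the KO minus WT response was 0.13 with 3 genes higher past 2-fold, the vehicle median was -0.24 with 0 higher and 2 lower, and 0 were higher with metformin in WT. After cyclic loess the median was -0.20 with metformin in KO, with 1 gene lower past 2-fold, 0.027 with metformin in WT, -0.28 for the KO minus WT response and 0.17 for KO against WT under vehicle, which was 0.24 above that of all genes. Without a filter, the median of the ER genes minus that of all genes was -0.035 with metformin in KO, -0.080 for the KO minus WT response and -0.075 for KO against WT under vehicle, and 1 gene was lower with metformin in KO (Sec61b). With the trend on gene span removed, an alternative chosen after seeing the data, the medians were -0.15 with metformin in KO, 0.044 with metformin in WT, -0.29 for the KO minus WT response and 0.13 for KO against WT under vehicle, where 1 gene was higher. The causes were not tested. The filter at the 75th percentile (39 genes) and the mean of probe sets changed none of the 20 medians and counts. For KO against WT under metformin the 1.5-fold call alone changed a value. No paired analysis was possible because each group has 1 array and the labels give no replicate numbers. Background per array is not known, so differences that involve values under 5.03 are not exact folds.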

Other observations

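Genes of transport between ER and Golgi and the sensors and factors of the stress response are described beside all genes. Of 29 transport genes, 25 were lower in KO than in WT under vehicle, with a median of -0.46, against 66.9% of all genes lower and a median of -0.22 (-0.29 after cyclic loess with 22 lower, and -0.61 with centred arrays). Their median was 0.21 with metformin in KO, -0.32 with metformin in WT and 0.03 in KO against WT under metformin, against 0.11, -0.14 and 0.02 over all genes. Sec31a, an outer coat protein of the vesicles that leave the ER, had the highest KO minus WT response of this list, at 1.20. Of 14 stress sensors and factors, 12 were lower under vehicle in KO (median -0.47 and -0.23 after cyclic loess), and 12 were higher with metformin in KO (median 0.39). Over all genes 66.9% were lower under vehicle (median -0.22 and -0.07 after cyclic loess) and 61.7% higher with metformin in KO (median 0.11). Creb3l1, a membrane-bound transcription factor of secretory cells, was the 1 gene of all 86 other pathway genes past 2-fold with metformin in KO (1.03), where 2.44% of all genes were higher past 2-fold, and Ppp1r15a, which reverses the translational arrest of the stress response, was lowest in KO against WT under metformin (-0.74). These lists were chosen with earlier results of these data known.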
